A study of Caenorhabditis elegans with 8 samples.

Results

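The genes described here are hrg-11.2 and the named heme-responsive genes hrg-1, hrg-2, hrg-3, hrg-4 and hrg-7 of the nematode Caenorhabditis elegans. They were chosen by symbol, and hrg-11.2 was chosen because it had the largest fall of any gene in this comparison. Of these 6 genes, 5 had a probe set assigned to them alone in the platform annotation, among 17118 genes and 22548 probe sets in all. Each of the 5 had 1 such probe set. No probe set was assigned to hrg-2 alone, and it is not analysed here.

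Total RNA of worms of mixed stage was measured on Affymetrix GeneChip arrays of 1 colour, 4 for the ercc-1 mutant and 4 for wild type N2. The mutant is described in the labels as deficient in nucleotide excision repair (NER), in the N2 background, and its allele is not given in the sources used here. Mutant and wild type had the same food for 3 to 4 days, the bacterium E. coli HT115(DE3) with the plasmid pL4440, and were taken as populations of all stages without a stated age. Whether replicates were separate cultures is not in the labels, so p-values reflect the spread between these arrays alone, and that spread may be technical. Values are the deposited ones, read as log2 expression, and differences are mutant minus wild type on that scale.

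C. elegans does not make heme, the iron-containing ring carried by cytochromes, globins, catalases and many other proteins, and takes it from the bacteria it eats. Heme enters the intestine through membrane transporters of the HRG-1 family, leaves it by export and secreted carriers, and reaches the epidermis, germ line and embryos. Several hrg genes are known to rise when heme is scarce, which gave the family its name, heme-responsive gene. The question put to the arrays was whether other hrg genes fell in the mutant together with hrg-11.2.

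The probe set of hrg-11.2 was far lower on all mutant arrays. It read 7.40, 7.28, 7.56 and 7.94 on the mutant arrays (replicates 1 to 4) against 11.36, 11.33, 10.99 and 11.23 on the wild-type arrays (replicates 1 to 4). The groups did not overlap, and the highest mutant value lay 3.05 below the lowest wild-type value. For comparison, the groups did not overlap in 6.88% of all genes. The mutant mean was 7.55 ± 0.287 and the wild-type mean 11.23 ± 0.168 (SD, 4 arrays per group, n = 4), a log2 difference of -3.68, or 12.8-fold. The next largest fall of a gene was 2.08. These values chose the gene, so they are given as a description without a test. The probe set carries the suffix _s_at, which marks a possible match to several transcripts, as do those of hrg-1, hrg-11.3 and hrg-11.4, and no second probe set was there to compare it with. In whole worms, fewer cells of a type and less RNA per cell cannot be told apart.

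The heme transporters hrg-4 and hrg-1 showed no fall of that size. HRG-4 brings heme across the plasma membrane of intestinal cells, and HRG-1 moves it out of their lysosome-like compartments. The hrg-4 probe set read 9.58, 9.60, 9.66 and 9.27 on the mutant arrays (replicates 1 to 4) against 9.63, 9.70, 10.17 and 9.70 on the wild-type arrays (replicates 1 to 4). The groups overlapped, wild-type replicate 3 was high and mutant replicate 4 low. The log2 difference of hrg-4 was -0.27 (SE 0.134, 95% confidence interval -0.57 to 0.03, limma adjusted p = 0.562), and it was -0.15 without wild-type replicate 3. The hrg-1 probe set read 11.50, 11.23, 11.21 and 11.08 in the mutant and 11.13, 11.07, 11.27 and 11.04 in wild type. The groups overlapped, and mutant replicate 1 was the highest of the 8. Its log2 difference was 0.13 (interval -0.10 to 0.35, limma adjusted p = 0.756), and 0.046 without mutant replicate 1.

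**Figure D1:**
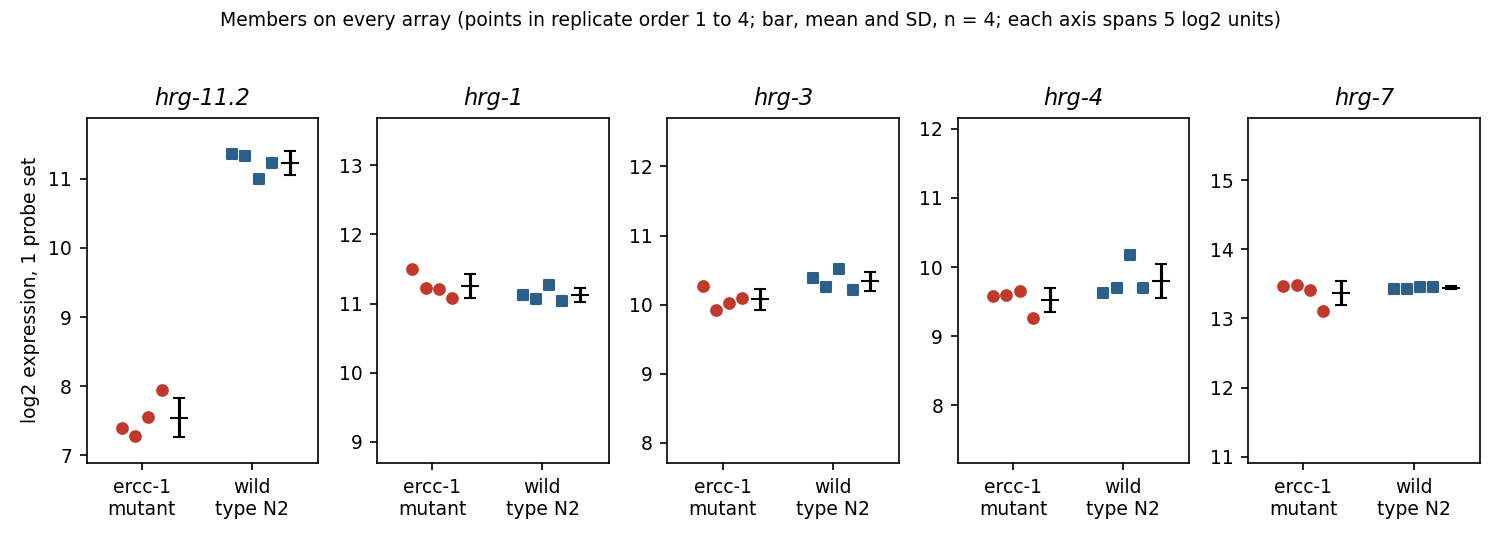
Log2 expression of the 5 measured members on each of the 4 mutant arrays (circles) and 4 wild-type arrays (squares), with mean and SD beside them; every vertical axis spans the same number of log2 units. The hrg-11.2 groups lie 3.05 apart at their nearest points, and the groups of hrg-1, hrg-3, hrg-4 and hrg-7 overlap.

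HRG-3 is a small protein secreted by the intestine that carries heme to developing oocytes and embryos. Its probe set read 10.27, 9.92, 10.02 and 10.09 on the mutant arrays (replicates 1 to 4) against 10.39, 10.25, 10.51 and 10.21 on the wild-type arrays (replicates 1 to 4). Only mutant replicate 1 reached into the wild-type range. The log2 difference of hrg-3 was -0.27 (SE 0.099, 95% confidence interval -0.49 to -0.04), which did not pass the threshold of 0.05 after adjustment over all probe sets (limma adjusted p = 0.396). It passed with array weights, at a log2 difference of -0.33 (limma adjusted p = 0.0438; 0.0438 to 0.662 over its alternatives). Those weights gave mutant replicate 2 a weight of 5.05 against 0.32 to 0.62 for the other mutant arrays. With them 1423 of all 22548 probe sets passed.

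HRG-7 is a secreted protein related to aspartic proteases that signals the heme state of the intestine to other tissues. The hrg-7 probe set read 13.47, 13.48, 13.41 and 13.11 on the mutant arrays (replicates 1 to 4) against 13.43, 13.43, 13.46 and 13.46 on the wild-type arrays (replicates 1 to 4). The wild-type values spanned 0.03 and the mutant values 0.37, the width coming from mutant replicate 4. The log2 difference was -0.08 (SE 0.090, interval -0.28 to 0.13, limma adjusted p = 0.850), and it turned to 0.0083 without mutant replicate 4.

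Of these 4 other members, 0 passed the limma test at an adjusted p under 0.05, where 0.665% of all probe sets did (150 of 22548). At an unadjusted p under 0.05 the count was 1, hrg-3, against 9.87% of all probe sets. The lower bounds of the 4 intervals ran from -0.57 to -0.10, so none reached the size of the hrg-11.2 difference of -3.68, while small falls lie within all of them. The difference lay below 0 for 3 of the 4, beside 39.7% of all genes.

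The array also measured 6 further genes whose symbols start with hrg-, read by 9 probe sets. They were hrg-9, hrg-10, hrg-11.3, hrg-11.4, hrg-13 and hrg-14. In these, 0 of 6 passed at an adjusted p under 0.05 in limma and 1, hrg-10, had an unadjusted p under 0.05. Over all genes the shares were 0.672% and 10.5%. The median log2 difference of the 6 was 0.06, beside 0.03 over all genes, with a range from -0.30 to 0.14. The genes that share the hrg-11 name had differences far smaller than that of hrg-11.2. The hrg-11.3 probe set read 11.90, 11.74, 11.52 and 11.59 in the mutant and 11.53, 11.58, 11.45 and 11.62 in wild type, a log2 difference of 0.14 (interval -0.07 to 0.35, limma adjusted p = 0.693), and 0.072 without mutant replicate 1. The hrg-11.4 probe set read 7.67, 7.66, 7.88 and 7.82 in the mutant and 7.74, 7.77, 7.49 and 7.55 in wild type, a log2 difference of 0.12 (interval -0.08 to 0.32, limma adjusted p = 0.747). The groups of both genes overlapped, and all 8 values of hrg-11.3 lay within a range narrower than the gap in hrg-11.2.

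The genes hrg-9 and hrg-10 encode the worm's homologues of human TANGO2, a protein linked to the movement of heme out of storage sites. The hrg-10 probe set read 8.26, 8.46, 8.40 and 8.38 on the mutant arrays (replicates 1 to 4) against 8.58, 8.62, 8.85 and 8.64 on the wild-type arrays (replicates 1 to 4). All mutant values lay below all wild-type values, as they did for 1.87% of genes. The difference was -0.30 (SE 0.082, interval -0.48 to -0.11), which did not pass (limma adjusted p = 0.212; 0.0737 to 0.543 over its alternatives). The main hrg-9 probe set gave a difference of -0.07 (interval -0.30 to 0.17, limma adjusted p = 0.906) and its second probe set, which carries the suffix _s_at, gave -0.22 (limma adjusted p = 0.699). The difference of hrg-14 was 0.06 (interval -0.14 to 0.27), and those of the 3 hrg-13 probe sets were 0.06, 0.02 and 0.11, with limma adjusted p from 0.864 to 0.984 for hrg-13.

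**Figure D2:**
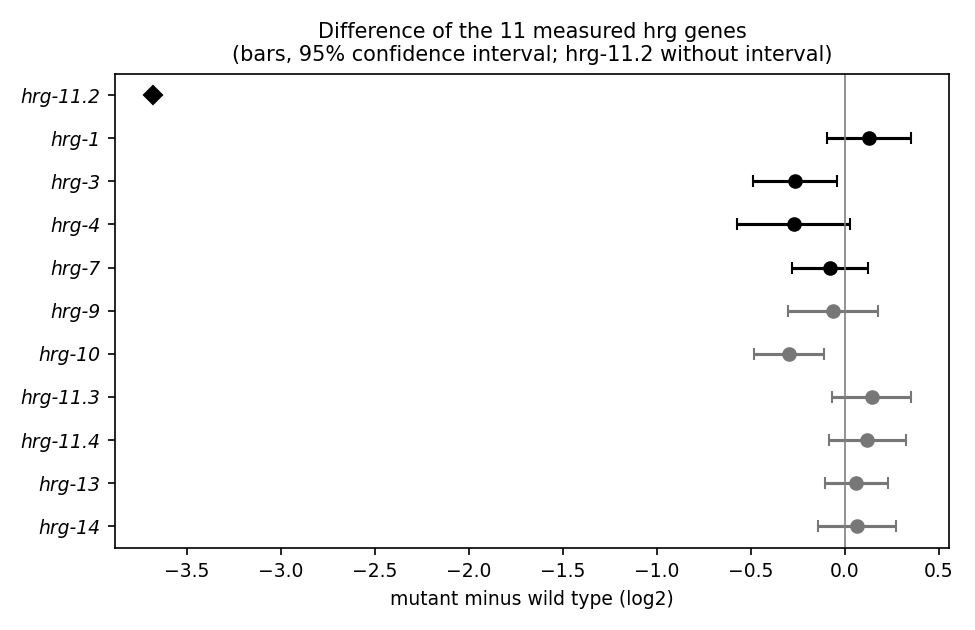
Log2 difference, mutant minus wild type, of the 11 measured hrg genes; bars are 95% confidence intervals from limma (black, members; grey, other hrg genes), and hrg-11.2 is drawn without one because it was chosen by this value. The point of hrg-11.2 is at -3.68 and the other 10 lie between -0.30 and 0.14.

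On 2 arrays hrg-11.2 stood at one end of its group and both transporter genes at the other. The mutant array with the highest hrg-11.2 value, replicate 4 at 7.94, was the one with the lowest values of hrg-1, hrg-4, hrg-7 and hrg-9. Wild-type replicate 3, which had the lowest hrg-11.2 value of its group, had the highest values of hrg-1, hrg-3, hrg-4, hrg-9 and hrg-10 and, tied with replicate 4, of hrg-7. On that array the 5 genes hrg-11.2, hrg-11.3, hrg-11.4, hrg-13 and hrg-14 were all at their lowest. At the other extremes of hrg-11.2 the transporter genes did not both stand opposite, though some hrg genes did. The lowest mutant value of hrg-11.2 was on replicate 2, which had the highest of hrg-7 and hrg-10 but the lowest of hrg-3. The highest mutant values of hrg-1 and hrg-4 were on replicates 1 and 3. Wild-type replicate 1 had the highest hrg-11.2 value of its group and the lowest of hrg-4 and hrg-10. It also had the lowest of hrg-7 and hrg-9, tied with replicate 2, while that of hrg-1 was on replicate 4. Wild-type replicate 3 was thus at an end of its group for all 11 hrg genes. Over all genes it was the highest wild-type array in 40.0% and the lowest in 23.9%. Mutant replicate 4 was likewise the highest mutant array in 36.3% of all genes and the lowest in 27.0%. Deviations of hrg-11.2 from its group means correlated at -0.87 with those of hrg-7, -0.82 with hrg-4, -0.68 with hrg-1 and -0.13 with hrg-3. Both hrg-11.2 and hrg-7 deviated most on mutant replicate 4, by 0.395 and -0.2575. The wild-type hrg-7 values deviated by only 0.015 in either direction. Correlations of hrg-11.2 with all genes were not set beside these. Among the other 4 members the 6 correlations ran from -0.02 to 0.75. These are descriptions over 8 arrays of 2 groups, the members share each array's RNA and scaling, and no test was run on them.

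**Figure D3:**
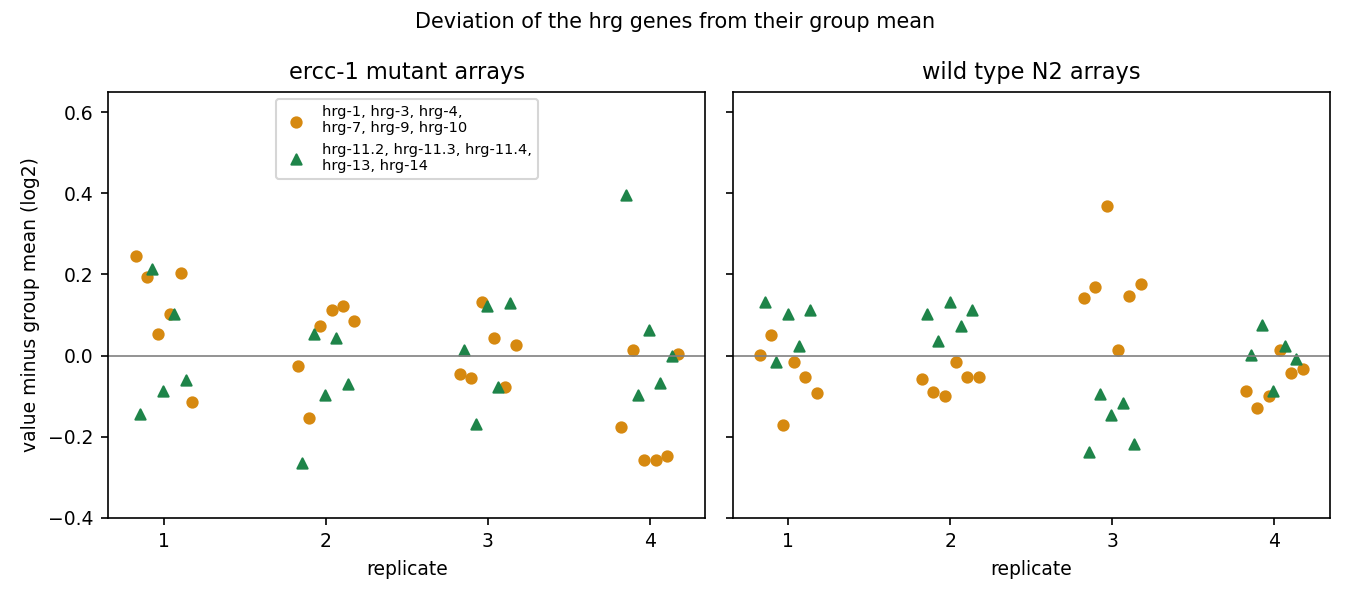
Value minus group mean (log2) of the 11 hrg genes by replicate, in the mutant (left) and wild type (right); circles are the 6 genes highest on wild-type replicate 3 (hrg-7 tied) and triangles the 5 genes lowest there, a division made from these values. In the mutant the triangle farthest above 0 is hrg-11.2 on replicate 4.

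The genes beside hrg-11.2 on chromosome X, taken in the order of the RefSeq gene table, gave overlapping groups on both sides. On one side these were rgl-1, which encodes a relative of the exchange factors of the GTPase Ral, F28B4.4 and F28B4.1. Their log2 differences were 0.10, 0.13 and 0.07 (limma adjusted p = 0.842, 0.614 and 0.796). On the other side were irg-7, named as an infection response gene, F40F4.7 and tba-9, an alpha-tubulin. The nearest of them, irg-7, read from 11.12 to 11.86 in the mutant and from 11.02 to 11.31 in wild type, a log2 difference of 0.29 (interval -0.04 to 0.63, limma adjusted p = 0.580), and 0.17 without mutant replicate 1. The differences of F40F4.7 and tba-9 were -0.005 and -0.013 (limma adjusted p = 0.995 and 0.983). Thus 0 of the 6 measured neighbours passed in limma, where 0.672% of all genes did. The groups did not overlap for 0 of the 6, and for 6.88% of all genes. The directions of rgl-1, F28B4.1, F40F4.7 and tba-9 turned under some alternatives.

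**Figure D4:**
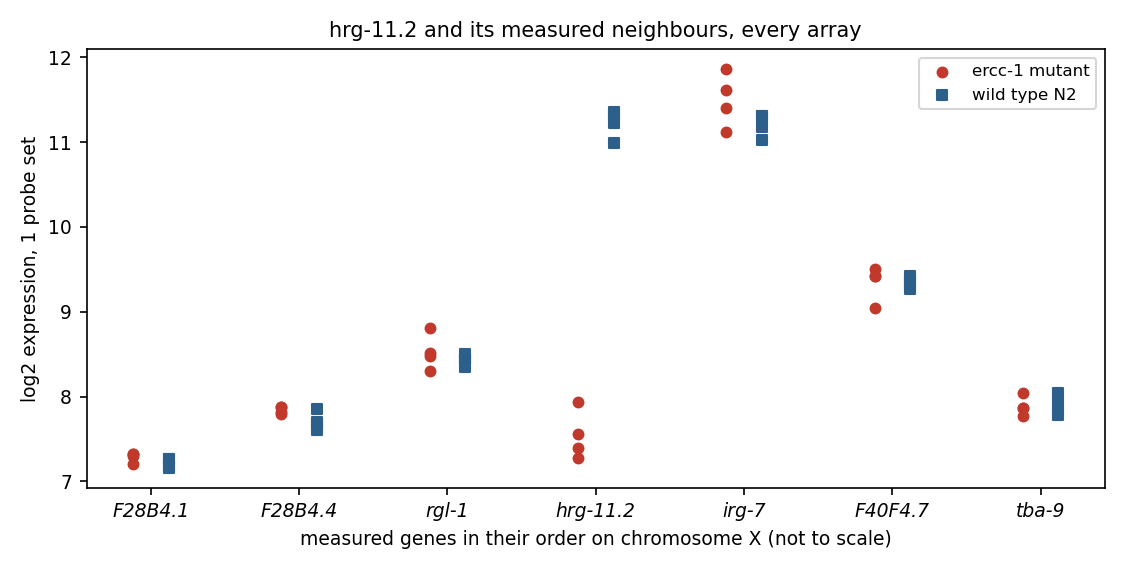
Log2 expression of hrg-11.2 and the 3 nearest measured genes on each side of it on chromosome X, 4 mutant arrays (circles) and 4 wild-type arrays (squares) per gene; the horizontal axis gives order only. The 4 mutant points of hrg-11.2 lie between 7.28 and 7.94 and its wild-type points between 10.99 and 11.36, while the groups of all 6 neighbours overlap.

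The genes whose pattern over the 8 arrays was most like that of hrg-11.2 were all lower in the mutant by smaller amounts. By Pearson correlation they were fcd-2 (r = 0.993), which encodes the orthologue of the Fanconi anaemia protein FANCD2, crml-1 (0.987), a CARMIL-family regulator of actin, and nfya-2 (0.983), a subunit of the NF-Y transcription factor. They were followed by F39H12.1 (0.982) and C52A10.3 (0.981). The log2 differences of these 5 genes ran from -1.02 for fcd-2 to -0.37 for nfya-2. The likeness is a description over 8 arrays and comes mainly from the gap between groups. Within groups the correlation with hrg-11.2 was 0.42 for fcd-2, 0.69 for crml-1, 0.47 for nfya-2, 0.61 for F39H12.1 and -0.03 for C52A10.3.

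No other gene of heme handling passed the test. In the list of heme transport and handling outside the hrg names, 0 of 6 measured genes passed in limma, against 0.672% of all genes (115 of 17118), and 1 had an unadjusted p under 0.05. The exporter gene mrp-5, named here after its values were seen, encodes the transporter that releases heme from the intestine. It read 11.48, 11.29, 11.34 and 11.04 in the mutant and 11.28, 11.29, 11.23 and 11.26 in wild type, a log2 difference of 0.02 (interval -0.19 to 0.23, limma adjusted p = 0.970). F22B5.4, known to respond to heme, had a log2 difference of 0.35 (SE 0.151, interval 0.01 to 0.69, limma adjusted p = 0.493; 0.0314 to 0.859 over its alternatives). The ABC transporter gene hmt-1 had a log2 difference of -0.12 (limma adjusted p = 0.558), with a mutant SD of 0.0050 on values given to 2 decimals. All its mutant values lay below all wild-type values, as they did for 1.87% of genes.

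Among genes of iron storage and transport and of lists named for heme proteins, 1 cytochrome P450 gene passed the limma test. Over all genes, 10.5% had an unadjusted p under 0.05. Of 16 iron homeostasis genes 0 passed, and 1 had an unadjusted p under 0.05; their median log2 difference was 0.04. Among them vhl-1, whose product marks the factor HIF-1 for destruction, and glrx-5, a mitochondrial glutaredoxin of iron-sulphur cluster assembly, read -0.21 and -0.14 (limma adjusted p = 0.421 and 0.549). Of 30 globin genes 0 passed and 4 had an unadjusted p under 0.05, with a median of 0.06, and glb-13 and glb-7 at 0.27 and 0.32 (limma adjusted p = 0.318 and 0.336). In the list of heme enzymes and electron carriers 0 of 20 passed and 3 had an unadjusted p under 0.05, with a median of 0.07. There the catalase gene ctl-2 read 0.31 and cbs-1, a cystathionine beta-synthase, 0.20 (limma adjusted p = 0.422 and 0.456). That list was written by symbol, and whether each worm product in it, cbs-1 included, binds heme was not checked. Among 73 cytochrome P450 genes, whose products bind heme, cyp-35D1 rose by 0.69 (SE 0.099, limma adjusted p = 0.0225, where 0.672% of all genes passed). None of the 73 passed as lower, although 30 differences lay below 0, and 8 higher and 1 lower had an unadjusted p under 0.05; the median was 0.03. That count of 1 became 0 without any 1 wild-type replicate and after quantile normalization, median centring or with the replicate block, 2 without mutant replicate 4 and 5 with array weights. With array weights 1423 of all 22548 probe sets passed.

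**Figure D5:**
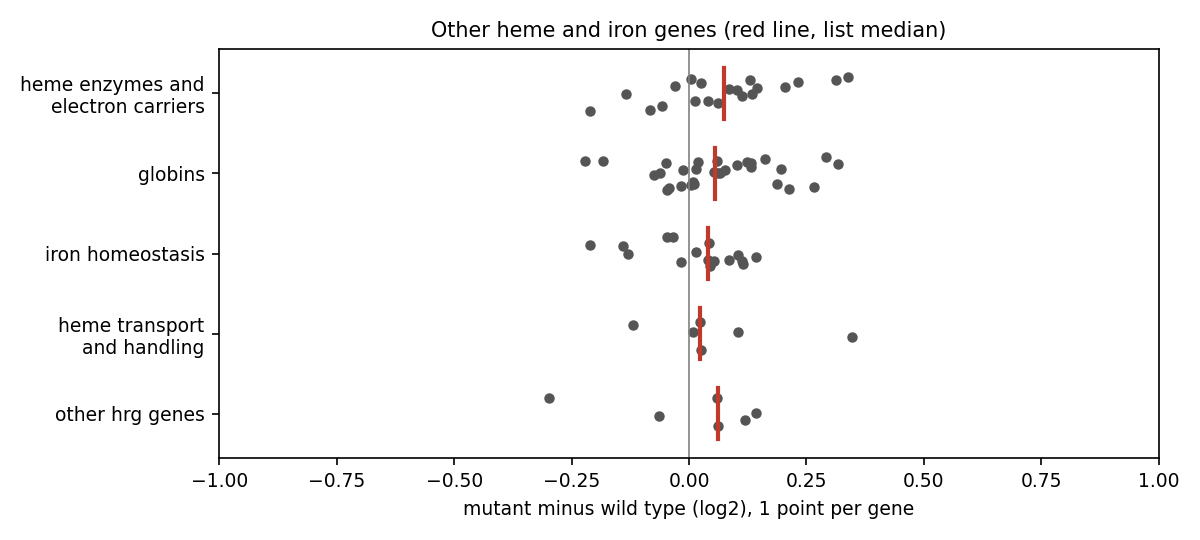
Log2 difference, mutant minus wild type, of each measured gene (points) in 5 lists of heme and iron genes, with the list median as a red line. The medians lie between 0.02 and 0.07 and no point is near the hrg-11.2 value of -3.68.

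Marker genes of the tissues that handle heme were read beside these results. Of 15 intestine markers and 14 hypodermis markers 0 passed in either list, where 0.672% of all genes did. At an unadjusted p under 0.05 in limma the counts were 1 and 0, beside 10.5% of all genes. The median log2 differences of the 2 lists were 0.05 and 0.11. With array weights 2 intestine markers passed, among them elt-7 (limma adjusted p = 0.0318), where 1423 of all 22548 probe sets passed. The mean level of the intestine list was 9.91 to 10.22 on mutant arrays and 9.92 to 9.98 on wild-type arrays, and that of the hypodermis list 8.94 to 9.48 and 9.06 to 9.12. The intestine genes with smallest p, elt-7, a GATA factor, and asp-1, an aspartic protease, read 0.33 and 0.15 (limma adjusted p = 0.141 and 0.509). Of the 15 intestine differences 6 lay below 0, and they ran from -0.195 to 0.495. The hypodermis genes with smallest p, dpy-2 and phy-2, of collagen and collagen hydroxylation, read 0.18 and 0.23 (limma adjusted p = 0.573 and 0.603). Of the 14 hypodermis differences 2 lay below 0. Of 16 germline markers 0 passed, and 0 had an unadjusted p under 0.05, with a median of -0.04 and the helicase gene glh-1 and the Notch receptor gene glp-1 at -0.12 and -0.15 (limma adjusted p = 0.724 and 0.647). Of the 16 germline differences 13 lay below 0, beside 39.7% of all genes, and they ran from -0.15 to 0.025. The sperm list, 23 msp genes of the major sperm proteins, moved the other way from hrg-11.2, with 18 higher, 0 lower and a median of 1.07, where 0.532% of all genes passed as higher. The probe sets of all 23 carry the suffix _x_at or _s_at, so the list has no value without such probe sets, and whether msp genes shared signal was not tested. Examples were msp-49, msp-50, msp-77 and msp-53, at 1.07, 1.08, 1.09 and 1.08 (limma adjusted p from 0.0189 to 0.0277). The mean level of the sperm list was 11.58 to 12.42 on mutant arrays and 10.61 to 10.86 on wild-type arrays. The groups of all 23 did not overlap, as in 6.88% of all genes in either direction. Without any 1 wild-type replicate 0 of the 23 passed, while the named differences stayed at 1.03 to 1.13. Without mutant replicate 1, 2, 3 or 4 the counts were 10, 5, 14 and 23. Under the other alternatives that could be run 14 to 23 passed. No marker in these 4 lists was listed at 0, and their part in the hrg values was not tested. Array medians ran from 7.44 to 7.59 in the mutant and 7.39 to 7.44 in wild type.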

How the data were processed

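The authors deposited 1 table of 1 value per probe set and array, made with Affymetrix Expression Console 1.1 per the submitters' processing notes and taken as log2 values from their range (0 to 14.38), since no source states a log base. The summarisation algorithm is not given in the sources used here. No further normalization was applied. Gene names came from the platform annotation (20766 probe sets with 1 gene), and chromosome and neighbours through the RefSeq gene table (assembly WBcel235), whose coordinates are not printed. The probe set with the highest mean over 8 arrays stood for a gene.

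Groups were fitted over all 22548 probe sets with limma 3.58.1 in R 4.3.3 (two-sided moderated test, Benjamini-Hochberg adjustment). In 10 simulated data sets of this comparison (22548 probe sets, 200 changed), 89.8% of log2 changes of 1 and 98.9% of those of 2 were called, and 5.60% of calls were false. Both sizes are far above the differences of the other hrg genes (-0.30 to 0.14), so these rates do not cover changes that small. Whether the rates hold where many genes of an array deviate together was not tested. The 6 members, 10 gene lists and the naming rule were chosen with earlier results of these data known. The rule names every hrg probe set, up to 4 called genes of a list or else the 2 with smallest p, 5 genes most like hrg-11.2 and 3 neighbours on each side. Of 98 symbols written into lists, 11 were not measured under that symbol. Alternatives were other scalings, filters, variance models, array weights, a replicate block and left-out arrays. For arrays, 4 per group limit the precision.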

Additional observations from a re-analysis of the deposited data

Results flagged for a closer look

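A single array stood far from the other 3 of its group for 10 of 82 groups of 4 examined (41 genes in 2 groups), where chance alone flags about 1 in 20. That rate is a rough guide, since the groups share arrays and are not independent. The msp flags below, for example, all fall on mutant replicate 4. For hrg-4 the value of 10.17 on wild-type replicate 3 lay above the other 3, at 9.63 to 9.70. The same array read 7.67 for hrg-9, above 7.47 to 7.48 on the others. Mutant replicate 1 read 8.75 for the intestine gene elt-7, above 8.48 to 8.52, and 8.98 for hmt-1, where the other 3 all read 8.97, a step of the last printed decimal. Mutant replicate 4 read 12.53 for msp-49, 12.47 for msp-50, 13.04 for msp-77 and 13.11 for msp-53, each above the other mutant arrays (11.84 to 11.88, 11.74 to 11.78, 12.27 to 12.31 and 12.33 to 12.42). The germline gene glh-1 read 11.57 on mutant replicate 4, above the other 3 mutant arrays, and 11.57 on wild-type replicate 1, above 11.44 to 11.46.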

How the results depend on the processing

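The hrg-11.2 log2 difference of -3.68 kept its direction and moved by less than 0.235, its SD pooled over both groups, under each alternative that could be run: -3.72 after quantile normalization, -3.77 after median centring, -3.91 with array weights, and -3.81 to -3.59 when 1 array was left out. It has no value without _x_at and _s_at probe sets, since its own is one of them. Median centring lowers every difference by 0.09. Same-numbered arrays deviated with correlations of 0.473, 0.014, 0.04 and 0.201, and not every array correlated best with its own number. With 4 arrays per group these values cannot decide whether the numbers pair the samples, and the main fit took the arrays as unpaired. With the replicate block hrg-11.2 stayed at -3.68, and 125 probe sets were called against 150. The genes called in the 6 heme and iron lists then went from 1 to 0, and those in the sperm list from 18 to 21. Of the 4 other members, 1 was called with array weights (hrg-3) and 0 under all other alternatives. Over the 6 heme and iron lists (151 genes), 1 gene was called. With array weights this count was 9, where 1423 of all 22548 probe sets passed. It was 0 after median centring or quantile normalization and 2 without mutant replicates 1 and 4 together (added after seeing the data). It was 0 to 2 when 1 array was left out. Over all probe sets 1423 were called with array weights, 46 without _x_at and _s_at probe sets, and 29 (without wild-type replicate 2) to 268 (without mutant replicate 4) with 1 array left out. Small differences changed sign: hrg-7 to 0.012 with array weights and between -0.12 and 0.0083 with 1 array left out (above 0 without mutant replicate 4), rgl-1 to -0.0063 with the mean of its probe sets and -0.023 without mutant replicates 1 and 4, F28B4.1 to -0.018 after median centring and -0.0059 after quantile normalization, and F40F4.7 to 0.037 with array weights. With 1 array left out F40F4.7 lay between -0.059 and 0.098 (above 0 without mutant replicate 3 or wild-type replicate 1 or 2) and tba-9 between -0.063 and 0.034 (above 0 without mutant replicate 3 or wild-type replicate 3 or 4). With 1 array left out, glh-1 went from -0.12 to -0.19 (mutant replicate 4), phy-2 from 0.23 to 0.35 (mutant replicate 3) and rgl-1 from 0.10 to 0.00083 and 0.17 (mutant replicates 1 and 3). With array weights F22B5.4, glb-7 and cbs-1 passed too (limma adjusted p = 0.0314, 0.0141 and 0.0391). The cause was not tested for any of these.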
